A study of Homo sapiens with 24 samples.

Results

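The genes described here are 10 of the 57773 in the deposited table: S100P, S100A2, S100A4, S100A6, S100A10, S100A11, S100A13, S100A14 and S100A16, which encode S100 calcium-binding proteins, and LCN2, which encodes lipocalin 2. They were picked by gene name, with earlier results of these libraries known. Which values guided the choice is not recorded, so the differences between their depleted and mock libraries are a description, given with no p-value. Where members are counted by the call rule of the fit across all genes, the count stands beside the share of all genes it called and supports nothing.

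The study measured RNA in SKOV3.ip1, a subline of the ovarian carcinoma cell line SKOV-3, by TGIRT-seq, in which a heat-stable reverse transcriptase from a group II intron copies total RNA that was freed of ribosomal RNA and broken into fragments. Cells were depleted of RBFOX2, hnRNPC, hnRNPM or SRSF1, all RNA-binding regulators of splicing, with 2 siRNAs per protein. The 24 libraries form 12 groups of 2, which the series describes as biological replicates. RBFOX2 siRNA_1 and siRNA_2 have the mock set n4/n5. Both hnRNPC siRNAs (siRNA_2 and siRNA_3) and hnRNPM siRNA_1 share the mock set oct. SRSF1 siRNA_1 has the mock set nov, and hnRNPM siRNA_3 and SRSF1 siRNA_3 share the mock set jan. The siRNAs were given at 100 nM with Lipofectamine, mock cells had the reagent without siRNA, and RNA was taken 72 h later, so no group holds a control siRNA. All groups come from a single cell line.

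S100 proteins are small proteins with calcium-binding EF hands that mostly act as dimers. On binding calcium most of them expose a surface that grips partners such as annexins, myosin and ezrin, and several are also released from cells and signal through receptors. Lipocalin 2 is a secreted protein that captures bacterial siderophores and thereby withholds iron; it is stored in neutrophil granules and is made by inflamed epithelia and many carcinomas under the control of NF-κB, its cofactor IκBζ and C/EBP factors.

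S100P, S100A2 and LCN2 are described first among the results, being lower together after SRSF1 depletion. Their promoter windows are shown for that reason, from RefSeq on GRCh38.p14, each running from 250 bases before the annotated start of transcription to 50 bases after it. S100P lies on the plus strand (chr4:6693628-6693927), S100A2 on the minus strand (chr1:153565795-153566094, the first of its windows) and LCN2 on the plus strand (chr9:128149203-128149502). Capitals mark the letters of a TATA element (TATAAA) in S100P and of a loose AP-1 pattern (TGANTCA, where N is any base) in S100A2 and LCN2. The base at N is C in S100A2 and A in LCN2.
S100P: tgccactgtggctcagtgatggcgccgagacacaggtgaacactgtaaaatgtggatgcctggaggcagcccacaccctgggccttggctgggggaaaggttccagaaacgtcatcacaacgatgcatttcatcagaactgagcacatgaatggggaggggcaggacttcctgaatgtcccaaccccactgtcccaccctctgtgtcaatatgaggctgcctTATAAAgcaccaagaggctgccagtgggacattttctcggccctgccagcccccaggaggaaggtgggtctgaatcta
S100A2: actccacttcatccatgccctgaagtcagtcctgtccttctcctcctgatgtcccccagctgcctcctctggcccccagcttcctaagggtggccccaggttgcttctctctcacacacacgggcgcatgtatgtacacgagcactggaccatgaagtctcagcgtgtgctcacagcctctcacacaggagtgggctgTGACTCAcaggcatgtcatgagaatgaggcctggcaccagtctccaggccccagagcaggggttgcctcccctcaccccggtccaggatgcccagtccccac
LCN2: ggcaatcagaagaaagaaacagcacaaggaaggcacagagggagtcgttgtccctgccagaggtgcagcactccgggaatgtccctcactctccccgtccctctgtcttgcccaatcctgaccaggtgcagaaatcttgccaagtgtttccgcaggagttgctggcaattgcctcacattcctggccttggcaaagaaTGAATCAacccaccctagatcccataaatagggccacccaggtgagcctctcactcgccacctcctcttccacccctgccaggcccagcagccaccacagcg
The TATA letters begin 28 bases before the S100P start. The AP-1 letters begin 52 bases before the start in both S100A2 and LCN2. All 10 members had a window, 14 windows in all, and 4 motifs were searched on both strands. Those in capitals were chosen after the matches of all 4 had been seen. AP-1 letters stood in 2 of the 14 windows, against 7.71% of all 35116 promoters in the table. TATA letters stood in 3 (S100P, S100A4 and the second S100A13 window), against 11.5% of all promoters. A loose κB pattern (GGG, then 5 bases of any kind, then CC), the kind of element NF-κB binds, stood in 11 windows and in 58.7% of all promoters, and a short glucocorticoid receptor element (TGTTCT) in 0 windows and in 14.8%. The marked matches do not overlap those of another motif, and a match is only a run of letters.

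Values below are TPM, a level per transcript length, scaled between libraries by a median-ratio factor. TPM is relative to each library's total, the sequencing depth is unknown, and fewer expressing cells and less RNA per cell cannot be told apart. Each targeted gene fell to between 21.3% and 32.0% of its mock level and lay below its mock libraries with all 8 siRNAs. Of 9 ovarian carcinoma and epithelial markers 7 reached the filter for testing, with a summed level of 633 to 978 scaled TPM per library, while WT1 and MUC16 did not. The summed level of 8 neutrophil and leukocyte markers was 0.0256 to 0.180, and that of the measured fibroblast and endothelial markers 0 to 0.105. The neutrophil markers are therefore near 0 in libraries that hold LCN2 RNA.

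**Figure D1:**
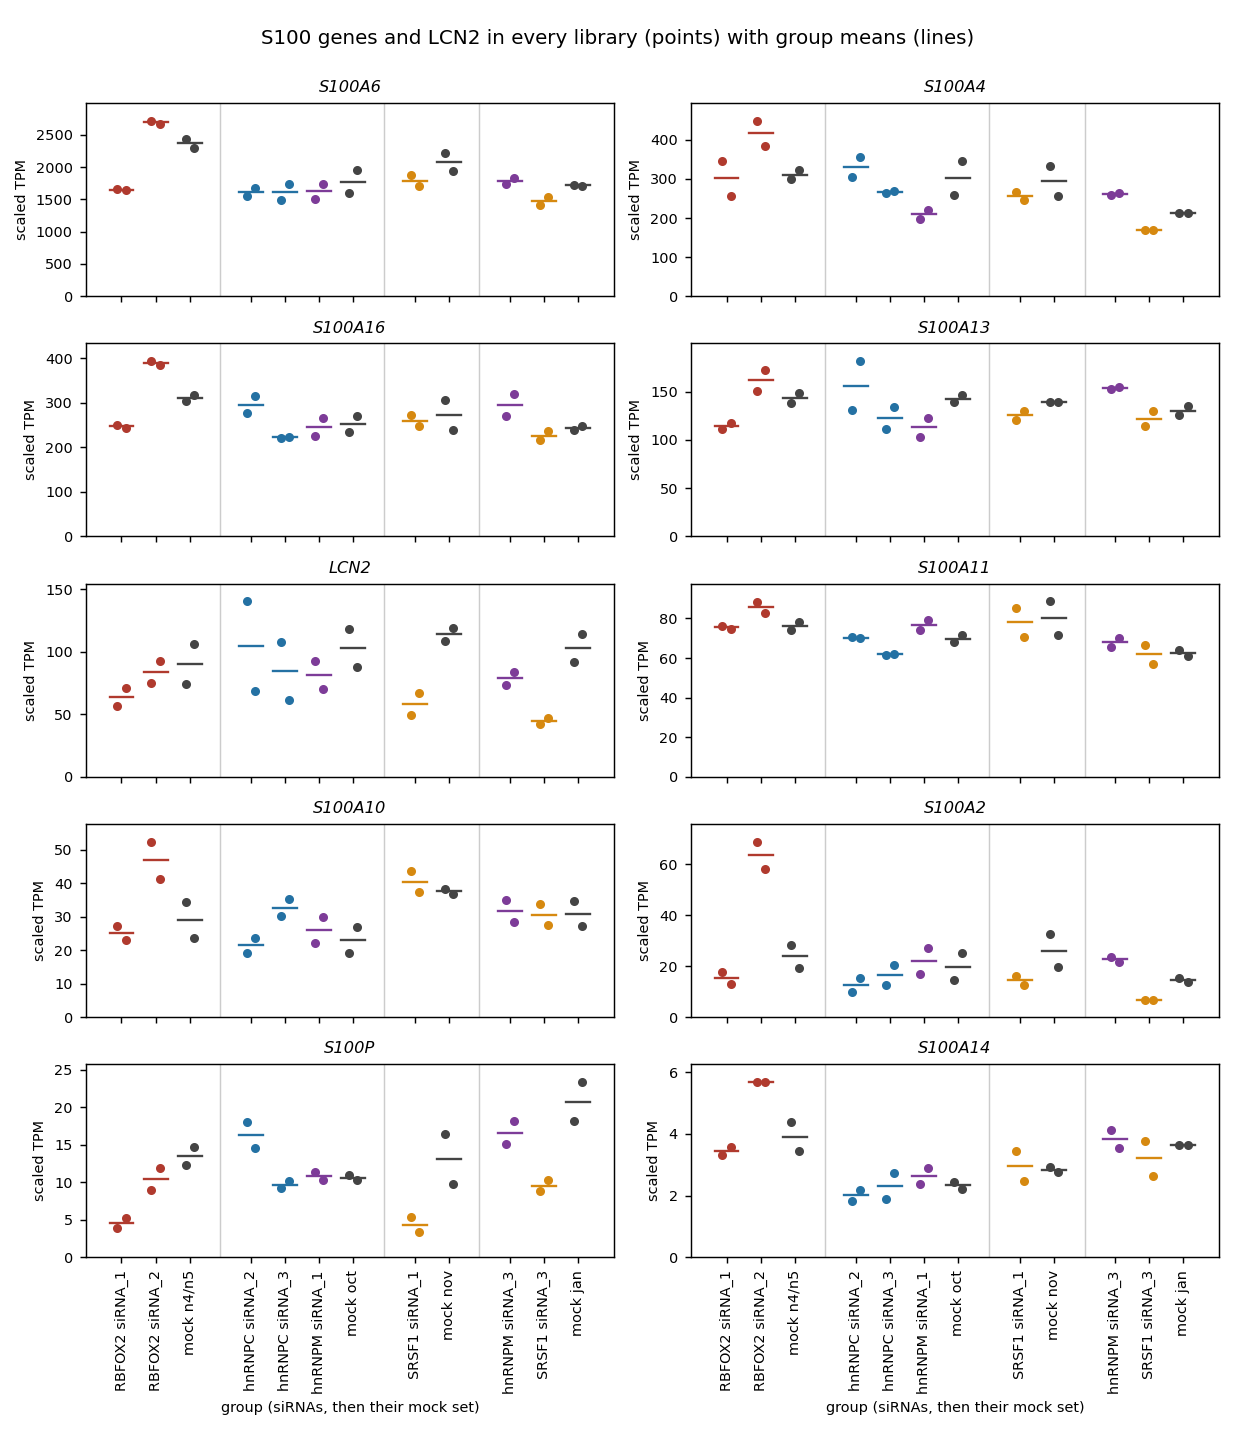
Scaled TPM (vertical axes, from 0) of the 10 members in each of the 24 libraries (points), with the mean of each group (lines); siRNA groups are followed by the mock set they share. The SRSF1 points lie below their mock points for LCN2, S100A2 and S100P, and the RBFOX2 siRNA_2 points are the highest of all groups for S100A2.

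S100A6 (calcyclin) was by far the most abundant member, at 1982 ± 306 scaled TPM in the mock libraries (SD, n = 8), rank 2 of 11270 protein-coding genes by its mean over all libraries. It supplied between 63.0% and 72.7% of the summed level of the 12 S100 genes that could be tested. S100A4, known for binding non-muscle myosin, stood at 280.1 ± 52.6 in mock libraries, and S100A16, a broadly expressed member of the family, at 269 ± 34.6. The mock ranges of S100A4 and S100A16 overlapped. S100A13, which takes part in the release of FGF1 without a signal peptide, followed at 139 ± 6.82.

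LCN2 came next in this order at 102 ± 16.1 scaled TPM in mock libraries (SD, n = 8). S100A11, a partner of annexin A1, stood at 72.1 ± 8.64 and overlapped LCN2 in range. S100A10 (p11), the partner of annexin A2 that does not respond to calcium, was lower at 30.2 ± 6.90. S100A2, first described in breast epithelium as a gene lost in tumours, stood at 21.1 ± 6.92 and S100P, named after placenta and a binder of ezrin, at 14.5 ± 4.67. The mock ranges of S100A10 and S100A2, and those of S100A2 and S100P, overlapped. S100A14 was the weakest member at 3.18 ± 0.724, near the filter of 1 TPM in 2 libraries that all 10 members passed.

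The members differed in how much they varied. Over the 24 libraries the highest value was 10.5 times the lowest for S100A2, 7.02 times for S100P and 3.33 times for LCN2. For S100A11 the same ratio was 1.55. The lowest value was in an SRSF1 library for 7 members (S100A6, S100A4, S100A16, LCN2, S100A11, S100A2 and S100P), and the highest was in an RBFOX2 siRNA_2 library for 6 members (S100A6, S100A4, S100A16, S100A10, S100A2 and S100A14). The share of all genes with their extremes in these libraries was not computed, and nothing is read from the counts.

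SRSF1 depletion went with lower RNA of S100P, S100A2 and LCN2, the largest of the members' differences shared by both siRNAs of a protein. These 3 of the 10 members met the call rule of the fit across all genes (limma, Benjamini-Hochberg adjusted p under 0.05 and the same sign with both siRNAs, no replicate block). The rule called 9.37% of the 16994 genes tested after SRSF1 depletion, 5.01% as fallen and 4.36% as risen, and nothing is read from the members' count. The other 7 members lay between -0.25 and 0.04 on the log2 scale over both siRNAs. Of the 7 ovarian carcinoma and epithelial markers tested, 2 were called after SRSF1 depletion, where the rule called 9.37% of all genes. KRT7 fell by 0.69 (SE 0.109, limma adjusted p = 0.00112). KRT8 fell by 0.26 (SE 0.0749, adjusted p = 0.0396), a call lost without 6 of the 8 libraries in turn. The KRT8 call was also lost with the TPM as deposited (limma adjusted p = 0.436), with quantile normalisation (0.108) and with no filter (0.0743). The others were not called, at -0.12 for CDH1, -0.11 for KRT18, -0.073 for PAX8, 0.041 for EPCAM and 0.29 for ERBB2. The part of KRT7 and KRT8 in the members' differences was not tested.

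S100P had 5.32 and 3.33 scaled TPM in the SRSF1 siRNA_1 libraries, against 16.5 and 9.74 in mock nov. It had 8.81 and 10.3 in the SRSF1 siRNA_3 libraries, against 18.1 and 23.4 in mock jan. Both siRNAs left S100P below its mock libraries without overlap, at 33.0% and 46.0% of the mock mean. The log2 differences were -1.39 and -1.04 (SE 0.224 each, 2 libraries against 2), on a scale with 1 added to each value that understates the change of weak genes.

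S100A2 had 16.2 and 12.6 scaled TPM in the SRSF1 siRNA_1 libraries, against 32.6 and 19.6 in mock nov. It had 6.67 and 6.56 in the SRSF1 siRNA_3 libraries, against 15.5 and 13.9 in mock jan. The groups did not overlap with either siRNA, but the mock nov libraries lay far apart. The log2 differences were -0.79 and -1.04 (SE 0.315), and -0.91 over both siRNAs. S100A2 no longer met the call rule without mock nov replicate 1 (-0.74), without SRSF1 siRNA_1 replicate 2 (-0.83), without mock jan replicate 1 (-0.87), without SRSF1 siRNA_3 replicate 2 (-0.91) or with no filter on low values (-0.91).

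LCN2 had 49.4 and 67.1 scaled TPM in the SRSF1 siRNA_1 libraries, against 108 and 119 in mock nov. It had 42.2 and 47.1 in the SRSF1 siRNA_3 libraries, against 91.7 and 114 in mock jan. All 4 depleted libraries lay below all 4 of these mock libraries, at 51.3% and 43.4% of the mock mean. The log2 differences were -0.97 and -1.18 (SE 0.312).

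The remaining members differed less after SRSF1 depletion. S100A6 averaged 1788 scaled TPM with siRNA_1 and 2074 in mock nov, and 1478 with siRNA_3 and 1716 in mock jan, log2 differences of -0.21 and -0.22 without overlap. With siRNA_1 the S100A6 difference was -0.059 with the TPM as deposited and -0.017 with quantile normalisation. With siRNA_3 it was -0.34 and -0.30. S100A4 differed by -0.19 with overlap and by -0.32 without. For S100A10 and S100A11, the annexin partners, all 4 differences lay between -0.04 and 0.10 and the libraries overlapped. S100A13, S100A14 and S100A16 lay between -0.16 and 0.03. With siRNA_1 5 members lay below their mock libraries without overlap, where 24.2% of all genes did, and with siRNA_3 6 did, against 22.9% of all genes. The median log2 difference of the members was -0.17 and -0.19, against -0.01 and 0.01 for all genes tested. With siRNA_1 8 members were lower than mock nov, but 6 with the TPM as deposited or with quantile normalisation. With a library left out that count was 5 to 10. With siRNA_3 10 were lower than mock jan, also in both of those scalings, and 7 to 10 with a library left out.

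**Figure D2:**
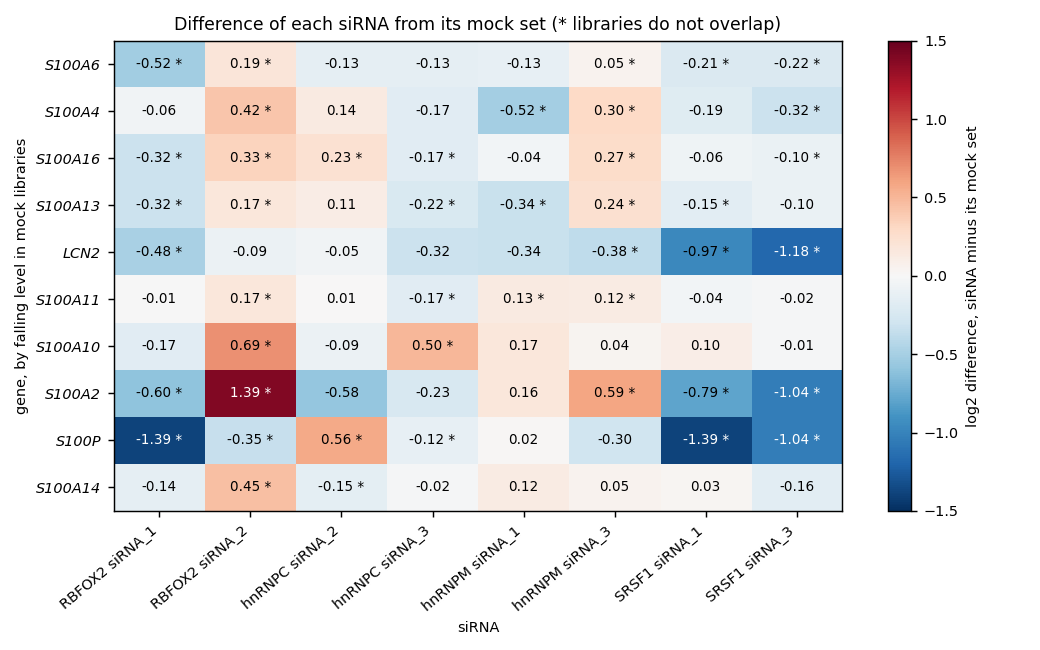
Log2 difference of each siRNA from its own mock set (colour and number) for the 10 members, with an asterisk where the 2 depleted libraries do not overlap the 2 mock libraries. Both SRSF1 columns are at -0.79 or lower for LCN2, S100A2 and S100P, and the RBFOX2 columns differ in sign for most S100 genes on this scale, though not with the TPM as deposited.

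The RBFOX2 siRNAs went with different S100 RNA levels from each other. With siRNA_1 all 10 members were lower than mock n4/n5, 6 of them without overlap, where 22.8% of all genes lay below without overlap. With siRNA_2 8 members were higher without overlap, where 23.8% of all genes were, and S100P was lower without overlap, as 20.8% of all genes were. No member met the call rule, which needs the same sign with both siRNAs and called 0.112% of genes, 0.0235% as risen and 0.0883% as fallen. With the replicate number as a block S100P met it (-0.87), where it called 363 of 16994 genes. The difference between the siRNAs was noticed after the values were seen and was not tested. How many members lay below mock n4/n5 with siRNA_1 depended on the scaling. It was 6 with the TPM as deposited, where S100A4 (0.23), S100A10 (0.10), S100A11 (0.27) and S100A14 (0.088) lay above it, and 8 with quantile normalisation, where S100A4 (0.13) and S100A11 (0.089) did. It was 7 with all 8 mock libraries as control, 8 without mock n4/n5 replicate 4 or RBFOX2 siRNA_1 replicate 5, and 9 without mock n4/n5 replicate 5. With siRNA_2 8 or 9 members were higher in each of these settings.

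S100A2 had 17.8 and 12.8 scaled TPM with RBFOX2 siRNA_1 and 68.8 and 58.2 with siRNA_2, against 28.4 and 19.4 in mock n4/n5. The siRNA_2 libraries were the highest of all 24, and the groups lay on opposite sides of their mock set. The log2 differences were -0.60 with siRNA_1 and 1.39 with siRNA_2 (SE 0.315).

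S100A6 had 1654 and 1643 scaled TPM with RBFOX2 siRNA_1 and 2717 and 2663 with siRNA_2, against 2435 and 2294 in mock n4/n5. S100A16 had 251 and 244 with siRNA_1 and 394 and 385 with siRNA_2, against 303 and 316 in the mock set. S100A13 had 111 and 118 with siRNA_1 and 150.5 and 173 with siRNA_2, against 138 and 148. Each of these 3 genes lay below the mock libraries with siRNA_1 and above them with siRNA_2, by log2 differences between -0.52 and -0.32 and between 0.17 and 0.33. With siRNA_1 the difference was smaller under other scalings, at -0.23 for S100A6 and -0.038 for S100A13 and S100A16 with the TPM as deposited, and at -0.059 for S100A6 with quantile normalisation.

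S100A10 stood above its mock libraries with siRNA_2 alone, at 52.5 and 41.3 scaled TPM, while siRNA_1 gave 27.3 and 23.1, against 34.5 and 23.5 in mock n4/n5. Its log2 differences were 0.69 with siRNA_2 and -0.17 with siRNA_1 (SE 0.214). S100A4, S100A11 and S100A14 showed the same order, with log2 differences of 0.42, 0.17 and 0.45 with siRNA_2 and of -0.06, -0.01 and -0.14 with siRNA_1.

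S100P and LCN2 did not share that order. S100P had 3.92 and 5.18 scaled TPM with RBFOX2 siRNA_1 and 8.95 and 11.9 with siRNA_2, against 12.3 and 14.6 in mock n4/n5. Both siRNAs left it below the mock libraries, by -1.39 and -0.35 on the log2 scale (SE 0.224). LCN2 had 56.6 and 70.7 with siRNA_1 and 75.0 and 92.5 with siRNA_2, against 74.5 and 106 in the mock set, log2 differences of -0.48 without overlap and -0.09 with overlap (SE 0.312). These depended on the scaling. With the TPM as deposited S100P overlapped the mock set with siRNA_2 (-0.11) and was at -1.13 with siRNA_1. LCN2 then overlapped it with siRNA_1 (-0.20) and was at 0.16 with siRNA_2.

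**Figure D3:**
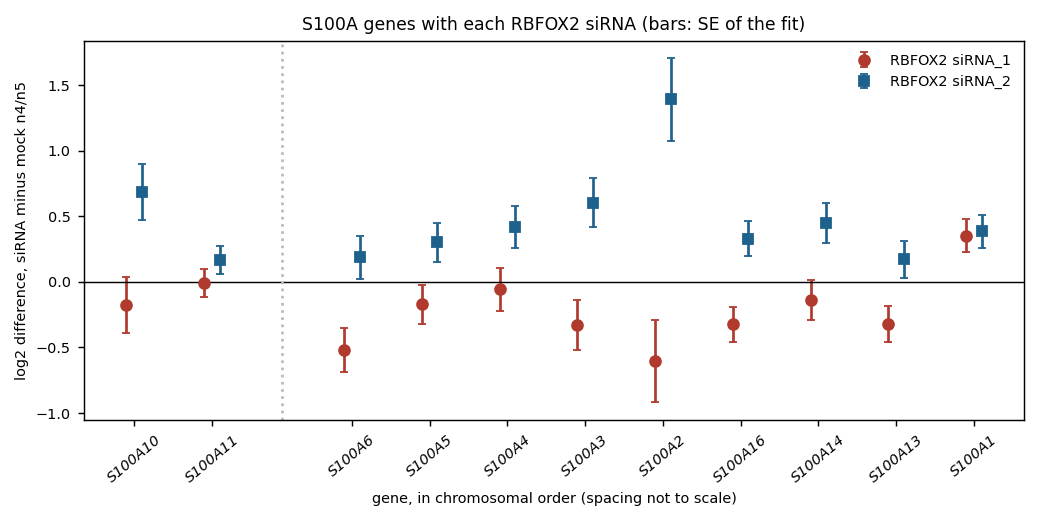
Log2 difference from mock n4/n5 (vertical axis; bars are the SE of the fit) of the tested S100A genes of chromosome 1 with RBFOX2 siRNA_1 (circles) and siRNA_2 (squares), in their order along the chromosome and not to scale. The squares lie above the circles for all 11 genes, narrowly for S100A1, and farthest for S100A2.

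The same signs with the RBFOX2 siRNAs also occurred outside this family. With siRNA_1 and siRNA_2 KRT7 was at -0.35 and 0.66, KRT8 at -0.23 and 0.25, and KRT18 at -0.15 and 0.19. The other tested epithelial markers did not show them, at -0.0018 and -0.013 for EPCAM, 0.014 and -0.27 for CDH1, 0.033 and -0.0020 for ERBB2, and 0.11 and 0.18 for PAX8. The share of all genes with these signs was not computed. The S100A genes concerned are neighbours. In RefSeq, S100A6, S100A5, S100A4, S100A3, S100A2, S100A16, S100A14, S100A13 and S100A1 follow each other on chromosome 1 with 0 protein-coding genes between them, while S100A10 and S100A11 lie apart, S100P is on chromosome 4 and LCN2 on chromosome 9. S100A4 overlaps S100A5, and S100A13 overlaps S100A1 and CHTOP; whether strand was used in counting is not given in the sources used here, so the assignment of reads in these pairs is uncertain. The members are also GC-rich, between the 66th and the 87th percentile of 11270 protein-coding genes. Over those genes the rank correlation of the log2 difference with GC content was 0.381 for RBFOX2 siRNA_1 and 0.363 for siRNA_2, with the same mock libraries in both. The part of GC content in these differences was not tested.

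After hnRNPC depletion no member met the call rule, applied with no replicate block, which called 6.45% of genes, 2.11% as risen and 4.34% as fallen. With the replicate number as a block S100A2 met it (-0.41), where it called 2267 of 16994 genes. With siRNA_2 5 members were higher and 5 lower than mock oct, 2 above without overlap (22.4% of all genes) and 1 below (25.9%). With siRNA_3 1 was higher and 9 lower, 1 above without overlap (17.4%) and 4 below (22.1%). With a library left out the number lower was 3 to 6 with siRNA_2 and 6 to 8 with siRNA_3. S100P had 18.0 and 14.6 scaled TPM with siRNA_2 and 9.19 and 10.2 with siRNA_3, against 10.9 and 10.4 in mock oct, so it lay above the mock libraries with siRNA_2 (0.56) and below them with siRNA_3 (-0.12). S100A10 was higher with siRNA_3, at 30.1 and 35.4, against 19.3 and 26.9 in mock oct, a log2 difference of 0.50, and overlapped with siRNA_2 at 19.1 and 23.7. With the TPM as deposited S100A10 overlapped mock oct with siRNA_3 as well, at a log2 difference of 0.24. S100A2 had 9.98 and 15.3 with siRNA_2 and 12.6 and 20.3 with siRNA_3, against 14.4 and 25.0 in mock oct, and overlapped the mock set with both. In 4 of 4 comparisons between libraries of the same replicate number S100A2 was lower with the hnRNPC siRNA than in mock oct, and so was S100A6. Each mock library entered these comparisons with both siRNAs. The share of all genes was not computed, and nothing is read from the count. S100A16 lay above the mock libraries with siRNA_2 (0.23) and below them with siRNA_3 (-0.17). Of the 7 ovarian carcinoma and epithelial markers tested 1 was called, KRT7, where the rule called 6.45% of all genes. KRT7 averaged 43.9 scaled TPM with siRNA_2 and 40.7 with siRNA_3, against 65.1 in mock oct. It fell by 0.60 after hnRNPC depletion (SE 0.134, limma adjusted p = 0.0155). Without mock oct replicate 3 (-0.37, adjusted p = 0.223) or hnRNPC siRNA_3 replicate 1 (-0.53, adjusted p = 0.0509) it no longer met the call rule. Its part in the members' differences was not tested.

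After hnRNPM depletion the call rule took no member, against 1.04% of genes, 0.359% as risen and 0.677% as fallen. With the replicate number as a block it took S100A2 (0.38), and 355 of 16994 genes. The siRNAs have different mock sets, oct for siRNA_1 and jan for siRNA_3. With siRNA_1 1 member lay above its mock libraries without overlap (16.3% of all genes) and 2 below (20.3%), and with siRNA_3 6 lay above (19.8%) and 1 below (17.8%). With or without overlap, 5 members were lower with siRNA_1 and 2 with siRNA_3, but 6 and 5 with the TPM as deposited. With a library left out these counts were 4 to 7 and 2 to 4. S100A4 had 197 and 222 scaled TPM with siRNA_1, against 259 and 346 in mock oct, and 259 and 264 with siRNA_3, against 212 and 213 in mock jan. It thus lay below its mock libraries with siRNA_1 (-0.52) and above them with siRNA_3 (0.30), and S100A13 did likewise (-0.34 and 0.24). S100A2 had 23.6 and 21.6 with siRNA_3, against 15.5 and 13.9 in mock jan, a log2 difference of 0.59, and overlapped mock oct with siRNA_1. S100A11 was higher with both siRNAs without overlap, by 0.13 and 0.12 (SE 0.107). With the TPM as deposited S100A11 overlapped mock jan with siRNA_3 (0.042). LCN2 had 73.7 and 83.6 with siRNA_3, against 91.7 and 114 in mock jan (-0.38), and 92.1 and 69.8 with siRNA_1, overlapping mock oct (-0.34).

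LCN2 and S100A2 also varied with the replicate number around the oct mock set, in opposite directions. In replicates 1 and 3 LCN2 had 140.2 and 68.2 scaled TPM with hnRNPC siRNA_2, 108 and 61.5 with hnRNPC siRNA_3, 92.1 and 69.8 with hnRNPM siRNA_1, and 118 and 87.6 in mock oct. Replicate 1 was the higher in all 4 groups, as for 16.5% of genes tested. For S100A2 replicate 3 was the higher in all 4 groups, and the same held for S100A4, S100A6, S100A10, S100A13 and S100A16 and for 19.4% of genes tested. LCN2 was higher in replicate 5 than in replicate 4 in all 3 groups around mock n4/n5, as for 19% of genes tested. It was higher in replicate 2 than in replicate 1 in all 3 around mock jan, as for 20.7% of genes tested. S100P and S100A13 had the same order as LCN2 in both of these sets. The labels do not say what the numbers mark, and this was noticed after the values were seen. Over protein-coding genes, deviations of libraries from their group means also had rank correlations with GC content. These were 0.186 to 0.64 for replicate 1 around oct and 0.17 to 0.612 for replicate 5 around n4/n5. For replicate 2 around jan they were -0.141 to 0.569. The part of GC content in the order of the replicates was not tested.

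**Figure D4:**
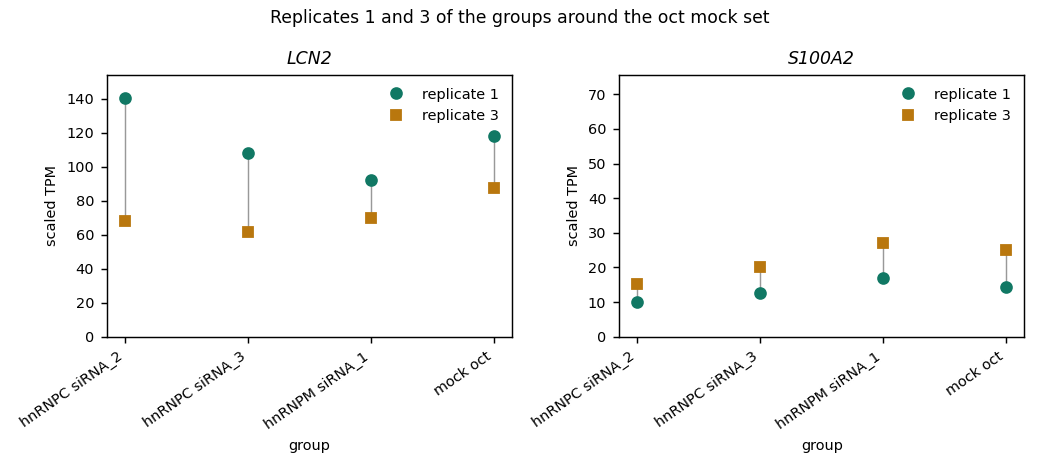
Scaled TPM (vertical axes, from 0) of LCN2 and S100A2 in replicates 1 (circles) and 3 (squares) of the 4 groups around the oct mock set. Replicate 1 is above replicate 3 for LCN2 in every group and below it for S100A2 in every group.

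Of the 11 other listed S100 genes 3 reached the filter and could be tested over all genes. S100A5, a little-studied relative whose gene overlaps S100A4, had 3.05 and 3.66 scaled TPM with SRSF1 siRNA_1, against 5.68 and 5.83 in mock nov, and 1.67 and 0.836 with siRNA_3, against 4.64 and 3.78 in mock jan. It fell by 0.93 on the log2 scale after SRSF1 depletion (SE 0.104, limma adjusted p = 7.38e-05), lower in 4 of 4 libraries. It also fell after hnRNPC depletion by 0.57 (SE 0.128, adjusted p = 0.0162), a call lost without mock oct replicate 3 (-0.44, adjusted p = 0.177) and with the TPM as deposited (-0.70, adjusted p = 0.0656).

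S100A1, a calcium sensor best known from heart muscle, rose by 0.46 after SRSF1 depletion (SE 0.0892, limma adjusted p = 0.00416). It averaged 2.24 scaled TPM with SRSF1 siRNA_1 and 1.46 in mock nov, and 3.55 with siRNA_3 and 2.17 in mock jan. The call was lost with the TPM as deposited (adjusted p = 0.0511) and with all 8 mock libraries as control (0.22, adjusted p = 0.0654). S100A3, a member rich in cysteine, met the call rule after depletion of no protein in the fit with no replicate block, with adjusted p from 0.0873 after hnRNPC depletion to 0.807 after RBFOX2 depletion. It was called after hnRNPC depletion with all 8 mock libraries as control (-0.33, adjusted p = 0.0435) and with the replicate number as a block (-0.50, adjusted p = 0.0146). S100A1 was called after RBFOX2 depletion with all 8 mock libraries as control (0.78, adjusted p = 1.12e-05). The other 8 listed genes, among them S100A8 and S100A9, which are abundant in neutrophils, did not reach the filter.

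Of 12 listed annexins, the family of S100 partners, 9 were tested and 1 was called, for hnRNPC, where the rule called 6.45% of all genes. ANXA3, a phospholipid-binding annexin, fell by 0.94 on the log2 scale over both hnRNPC siRNAs (SE 0.159, limma adjusted p = 0.00269). The siRNAs were unlike, with log2 differences of -1.53 for siRNA_2 and -0.35 for siRNA_3. ANXA3 had 24.9 scaled TPM with siRNA_2 (SD 2.3) and 58.1 with siRNA_3 (SD 8.69), against 75.0 in mock oct (SD 19.7, n = 2 each). The call was lost without mock oct replicate 3 (-0.67). ANXA2, the partner of S100A10, and ANXA1, the partner of S100A11, met the call rule in no comparison. Of 15 listed binding partners and receptors 12 were tested and 1 was called, for hnRNPM, where the rule called 1.04% of all genes. SUGT1, a chaperone-associated protein that binds S100A6, fell after hnRNPM depletion by 0.40 (SE 0.0594, adjusted p = 0.00246), a call lost with the TPM as deposited (-0.46, adjusted p = 0.276). The median log2 difference of these 12 lay between -0.08 after hnRNPC and 0.06 after hnRNPM depletion, against -0.01 and -0.00307 for all genes tested. AGER, which encodes the receptor RAGE for extracellular S100 proteins, and TLR4 did not reach the filter.

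For lipocalin 2, the receptor genes SLC22A17 and LRP2 and the partner MMP9 did not reach the filter either. Of 10 listed genes 6 were tested and 1 was called, for SRSF1, where the rule called 9.37% of all genes. NFKB1, which encodes the p50 subunit of NF-κB, averaged 22.7 scaled TPM with SRSF1 siRNA_1 and 16.8 in mock nov, and 21.8 with siRNA_3 and 17.6 in mock jan. It rose by 0.36 (SE 0.0960, limma adjusted p = 0.0268), a call lost without 7 of the 8 libraries in turn, with differences of 0.27 to 0.46. The NFKB1 call was also lost with the TPM as deposited (limma adjusted p = 0.315) and with no filter (adjusted p = 0.0666). NFKBIZ, which encodes IκBζ, had a log2 difference of 0.39 after SRSF1 depletion that did not pass (SE 0.239, adjusted p = 0.355).

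Over the 12 group means, the genes whose levels ran most like LCN2 among 7967 candidates were RNASEH1-AS1 (Pearson r = 0.928), XPOT (0.903) and MTMR6 (0.900). Those most like S100P were DDX59 (0.942), AKR1C2 (0.893) and ANKRA2 (0.875). These values describe 12 group means of the same 24 libraries and were picked as the highest of many.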

How the data were processed

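The authors deposited a table of TPM values, with 57773 genes in rows and the 24 libraries in columns. The build is hg19, and the tools named, per the submitters' processing notes, are Bowtie2 2.1.0.0, TopHat2 2.0.9, SAMtools 0.1.19.0, Trimmomatic 0.38 and FastQC 0.10.1. The tool and annotation that made the TPM and the use of strand are not given in the sources used here, and depth is unknown, so no counting interval can be given. Overlapping genes and close copies have an uncertain assignment.

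TPM were scaled by median-ratio factors (0.664 to 1.41, over 22727 genes above 0 in all libraries) and put on the scale log2(scaled TPM + 1). The 16994 genes that reached 1 TPM in 2 or more libraries entered the fit in limma 3.58.1 (R 4.3.3) with 12 group means, empirical Bayes moderation and a mean-variance trend (residual degrees of freedom 12, prior 3.04). The contrast of a protein averages both siRNAs, each against its own mock set. A call needed an adjusted p (Benjamini-Hochberg, over all genes) under 0.05 and differences of 1 sign with both siRNAs. The fit was also run on simulated libraries with independent noise and no effect shared by replicate number. That run cannot tell how often the call rule errs where such an effect is present. The p-values measure the spread between these libraries. No pair of libraries held identical values.

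The members and the gene lists were chosen with earlier results of these data known. Named were all members, each measured other S100 gene and up to 3 called genes per protein of each further list, KRT7 and KRT8 among them. Also named were the 3 genes most like LCN2 and S100P with a mean of at least 5 scaled TPM, clone-based symbols left out. A few other listed genes (ANXA1, ANXA2, NFKBIZ and untested receptors and markers) are named for their roles. The epithelial markers tested but not called are named beside KRT7 and KRT8. Promoter windows and gene order came from RefSeq (GRCh38.p14), matched by symbol; GC content came from GENCODE by gene identifier. Neither is the build of the table, and no coordinates were compared between them. The alternatives were the TPM as deposited, quantile normalisation, another pseudocount (0.1), a filter at 5 TPM or none, a replicate block, all 8 mock libraries as control, and leaving out each library.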

Additional observations from a re-analysis of the deposited data

Results flagged for a closer look

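For several genes the libraries of one siRNA of a protein all lay above their mock set and those of the other all below, and the difference between the siRNAs was not tested. The share of all genes that lay on opposite sides in this way was not computed, and nothing is read from how many did. After RBFOX2 depletion the log2 differences with siRNA_1 and siRNA_2 were -0.60 and 1.39 for S100A2, -0.52 and 0.19 for S100A6, -0.32 and 0.17 for S100A13, -0.32 and 0.33 for S100A16, and -0.17 and 0.30 for S100A5. After hnRNPC depletion the differences with siRNA_2 and siRNA_3 were 0.56 and -0.12 for S100P and 0.23 and -0.17 for S100A16. After hnRNPM depletion, where the siRNAs have different mock sets, the differences with siRNA_1 and siRNA_3 were -0.52 and 0.30 for S100A4, -0.34 and 0.24 for S100A13, and -0.30 and 0.22 for S100A5.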

How the results depend on the processing

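Of the 80 differences between an siRNA and its mock set among the members, 12 changed sign and 30 moved by over 1 SD with the TPM as deposited, 6 and 12 with quantile normalisation, and 15 and 36 with all 8 mock libraries as control; of 320 values with a library left out, 46 and 54 did. The 16 differences of 0.5 or more on the log2 scale kept their sign in every setting, but S100A6 with RBFOX2 siRNA_1 was at -0.059 with quantile normalisation, against -0.52. In the order RBFOX2, hnRNPC, hnRNPM, SRSF1, the TPM as deposited gave 4, 287, 42 and 249 genes called, against 19, 1096, 176 and 1593 with scaling, and the share rising was 75.0%, 22.3%, 28.6% and 35.3%, against 21.1%, 32.8%, 34.7% and 46.5%; this scaling moved the median of all genes to 0.21 for RBFOX2 and -0.14 for hnRNPC. For RBFOX2 no filter gave 52 and a filter at 5 TPM gave 46, with 41.3% rising at 5 TPM. With all 8 mock libraries as control the counts were 5003, 4411, 392 and 2632, and the members called were S100P, S100A4 and S100A14 (RBFOX2), S100A6 and S100A14 (hnRNPC), and S100P, S100A2, S100A4 and LCN2 (SRSF1). Leaving out each library gave 1 to 17, 369 to 1200, 80 to 138 and 919 to 1238 genes. The causes were not tested.

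Some small differences of other S100 genes, none of them called, changed sign. S100A5 after RBFOX2 depletion was at -0.070 with all mock libraries. Leaving out libraries gave S100A5 after hnRNPM depletion values from -0.10 to 0.025, above 0 without hnRNPM siRNA_1 replicate 3, mock jan replicate 1 or mock oct replicate 3, and S100A3 after RBFOX2 depletion values from -0.12 to 0.40, below 0 without mock n4/n5 replicate 5 or RBFOX2 siRNA_2 replicate 4.

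Replicate number as a block within each mock set gave 363, 2267, 355 and 2805 genes, with unchanged differences. The members called were then S100P (RBFOX2), S100A2 (hnRNPC and hnRNPM) and S100P, S100A2 and LCN2 (SRSF1). Deviations of same-numbered libraries correlated at 0.0615 to 0.137 around mock n4/n5, 0.179 to 0.355 around oct, 0.431 in nov and 0.151 to 0.211 around jan; with 2 numbers per set and no label saying what they mark, the pairing is a hint only.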
